A study of Hordeum vulgare with 6 samples.

Results

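The narrow H3K27me3 regions near the long-arm ends of the barley chromosomes were examined in the endosperm of cultivar Morex at 16 days after pollination. Overlapping or touching peaks of 3 H3K27me3 ChIP-seq replicates were joined into merged regions. Members were chosen by the peak calls themselves: a merged region was kept when it had a peak in all 3 lists, was under 80 kb wide, and had its midpoint beyond 90% of the length of one of the chromosomes 1H to 7H. This gave 536 members of 6846 merged regions in the series. They made up 16.6% of the 3237 regions that had a peak in every list and lay on a chromosome.

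All libraries came from one genotype, tissue and stage, grown without any treatment, so no condition separates them. Each ChIP library had an input library of the same replicate number, and the 3 input libraries were not used here as measurements. The labels say that sheared chromatin was pooled before the precipitation, without saying from what, so the replicates may differ by technical variation alone. The lists give no read counts, so the depth behind each value is unknown.

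H3K27me3, the trimethylated form of lysine 27 of histone H3, is placed by Polycomb repressive complex 2 and is known in plants as a mark of silenced developmental and tissue-specific genes. The cereal endosperm is a mostly triploid storage tissue, formed after fertilization of the central cell, that fills with starch and storage protein during the grain-filling stage. Barley chromosomes are long, with gene-rich and recombining ends and gene-poor interiors. In barley pseudomolecules coordinate 0 is by convention the tip of the short arm, so the last part of the coordinates is called the long-arm end. The lists hold no centromere positions, so the arms themselves could not be checked against the data.

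Because presence in every list, width and position chose the members, their number, width and strength are given as descriptions without a test. The strength of a peak is its fold, the authors' deposited ratio of ChIP signal to the background of the peak caller. It averages over all cells of the tissue, so a mark in few cells and a weak mark in many cells cannot be told apart. Where a list had several peaks in a region, the highest fold was taken. An exact sign-flip test on 3 paired replicates cannot go below a two-sided p of 0.25, so differences between sets of regions are given by replicate.

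Of the 1001 merged regions under 80 kb at the long-arm ends, 536 (53.5%) had a peak in all 3 lists. On the chromosomes as a whole the share of narrow regions with a peak in every list was 45.1%; presence in every list is part of the rule, and nothing is read from the difference. Another 157 regions at these ends had a peak in 2 lists and 308 in 1 list. Replicate 1 was the list most often missing, since 117 of the 157 were found by replicates 2 and 3 only. Of the regions found once, 42 came from replicate 1, 125 from replicate 2 and 141 from replicate 3. Replicate 1 also had the fewest peaks over the whole genome, 4273 against 5593 and 5815.

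The members covered 12.1 Mb, or 2.88% of the 419.6 Mb in the last 10% of the chromosomes. The 107 wide regions of 80 kb or more in the same part covered more sequence, 20.8 Mb. Members were found on every chromosome, with 98 on 3H, 95 on 7H, 81 on 5H, 72 on 4H, 66 on 2H, 65 on 1H and 59 on 6H. Per length, 3H and 7H kept the first places. The density was 1.58 members per Mb on 3H and 1.5 on 7H, and it was lowest on 2H with 0.992 and on 6H with 1.05. Chromosomes 3H and 7H also had the most wide regions at the long-arm end, 24 and 25, and 1H had the fewest with 6.

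**Figure D1:**
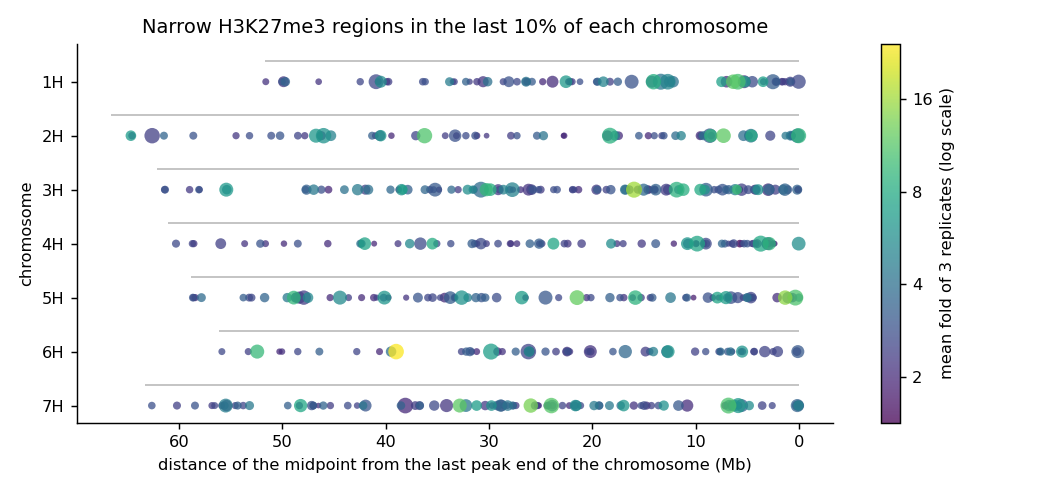
Position of the 536 members on 7 chromosomes, as the distance of each midpoint from the last peak end in Mb, with the end at the right. Point size grows with merged width, colour gives the mean fold of 3 replicates on a log scale, and each grey line spans the last 10% of the chromosome; the brightest point is the 6H member with a mean fold of 23.8.

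The long-arm and short-arm ends were alike in their total but not chromosome by chromosome. Narrow regions in all 3 lists reached 1.28 per Mb at the long-arm ends and 1.34 per Mb in the first 10% of the chromosomes, against 0.505 per Mb between them. On 3H the long-arm end held 98 and the short-arm end 51, a ratio of 1.92. On 5H the ratio was 1.29, from 81 and 63. The other 5 chromosomes had fewer at the long-arm end, and the lowest ratio was on 6H, with 59 against 89, or 0.663. Each chromosome gives 1 count per end, and these differences were not tested.

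Members were packed towards the tips. The last 1% of the chromosomes held 96 members, 2.29 per Mb, and the step from 9% to 10% away from the end held 30, or 0.715 per Mb. In all, 62.9% of the members lay in the last 5%. The fall was not even, since the step from 4% to 5% held 67 members and the step before it, nearer the tip, held 49. Of these 67 members, 16 were on 7H and 15 on 3H. The short-arm ends had 100 narrow regions in their outermost 1% and 28 in the step from 9% to 10%. Wide regions at the long-arm ends fell from 31 in the last 1% to 4 in the step from 9% to 10%.

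The fold of members did not follow this gradient in the same way. Its median in the last 3% of the length was 2.95, 2.77 and 2.95 in replicates 1, 2 and 3, and in the rest of the members it was 2.67, 2.57 and 2.77. At this cut the median was thus higher nearer the tip in each replicate. The cut falls where the mean of the replicate medians drops, from 2.98 in the step from 2% to 3% to 2.61 in the next. The median did not fall evenly, since the step from 6% to 7% away from the end had 2.95 ± 0.15 (SD, n = 3). Members in the last 3% were also wider, with a median of 18.2 kb against 12.7 kb. Comparing the outer 5% with the inner 5% gave nearly the same fold, 2.78 ± 0.11 and 2.76 ± 0.11 (SD, n = 3 each). Across members, Spearman's rho between fold and distance from the end was -0.080, -0.050 and -0.067 in the 3 replicates; members share libraries and are not independent.

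**Figure D2:**
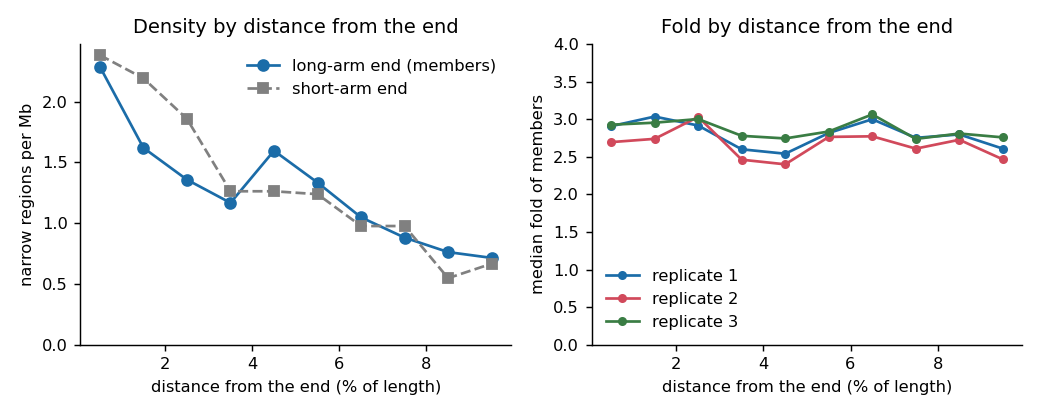
Left, narrow regions per Mb in steps of 1% of the chromosome length from the long-arm end (circles) and the short-arm end (squares), summed over 7 chromosomes; right, median fold of the members in the same steps, 1 line per replicate. Density at the long-arm end falls from 2.29 to 0.715 per Mb, while the median fold stays between 2.40 and 3.06.

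Most members were weak and short. The median fold was 2.81, 2.64 and 2.85 in replicates 1 to 3, or 2.77 ± 0.11 (SD, n = 3). A fold under 3 in every replicate was found for 242 members, and 156 had a fold of at least 3 in every replicate. A fold of at least 5 in every replicate was reached by 66 members, at least 10 by 8 members, and at least 20 by 1 member. The merged width ranged from 2.04 to 79.2 kb with a median of 14.4 kb, and 60.8% of the members were under 20 kb. In 515 members each list had exactly 1 peak.

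The significance that the peak caller gave to the members differed between replicates more than the fold did. The median −log10 q, where q is the deposited p-value adjusted for multiple testing, was 3.83, 6.57 and 7.85 in replicates 1 to 3. Replicate 1 had the lowest −log10 q of the 3 in 411 members, but the highest fold in 227. Replicate 2 had the lowest fold in 260 members and the lowest −log10 q in 78. The replicates thus stood in a different order by fold and by −log10 q.

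Wider members were stronger. The 155 members under 10 kb had a median fold of 2.24 ± 0.10, the 171 of 10 to 20 kb had 2.83 ± 0.15, the 125 of 20 to 40 kb had 3.54 ± 0.19, and the 85 of 40 to 80 kb had 5.37 ± 0.13 (SD, n = 3 each). Spearman's rho across members between fold and the bases that a replicate covered was 0.704, 0.747 and 0.680. The 85 widest members held 41.2% of the members' sequence. Among them the mean fold ran from 1.98 to 23.8, so that width alone did not fix the strength. In members under 10 kb it ran only from 1.80 to 2.86.

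**Figure D3:**
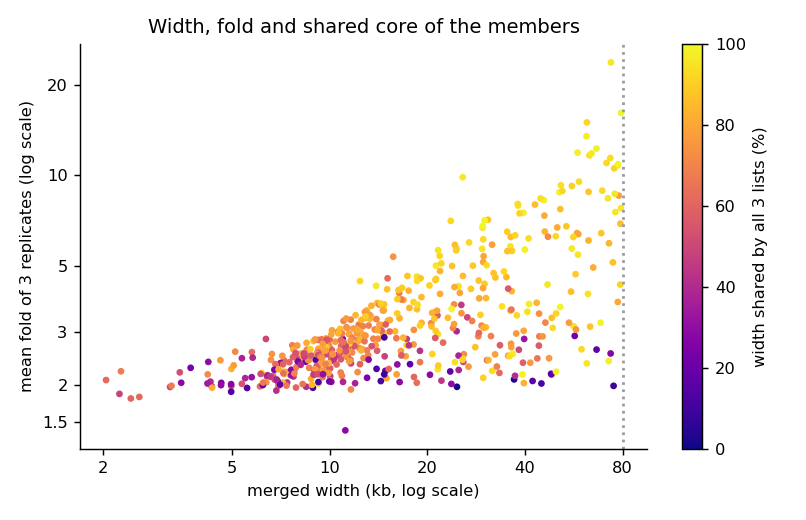
Mean fold of 3 replicates against merged width for the 536 members, both on log scales; colour gives the share of the merged width that all 3 lists covered, and the dotted line marks the 80 kb limit. Members of high fold are wide and have a large shared core, and the single point below all others is the 4H member with a mean fold of 1.41.

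Narrow regions elsewhere were compared at matched width. Over all widths, the median fold of the members was close to that of the 561 narrow regions at the short-arm ends, 2.77 ± 0.11 against 2.79 ± 0.11 (SD, n = 3 each), and the difference had no common sign in the 3 replicates. A smaller share of members had a fold of at least 3, at 42.2%, 38.1% and 43.1% against 43.0%, 39.6% and 47.4%. At 20 to 40 kb the members were lower in each replicate, with 3.71, 3.34 and 3.56 against 3.95, 3.84 and 3.97. They were also lower in each replicate at 40 to 80 kb. Under 10 kb the members were level in replicate 1, at 2.32 in both sets, and higher in replicates 2 and 3. At 10 to 20 kb they were higher in each replicate. The means of these classes, in the same order, were 2.24 against 2.20 and 2.83 against 2.74. Over all widths, the 1694 narrow regions between the ends had a median of 2.54 ± 0.07 (SD, n = 3), below the members in each replicate by 0.25, 0.18 and 0.25. The gap was largest in the widest class. Between the ends, the 170 regions of 40 to 80 kb had a median fold of 3.32, 3.37 and 3.33 in the 3 replicates. The 85 members of this width had 5.26, 5.35 and 5.51, and the 114 short-arm regions had 5.57, 5.37 and 5.56.

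The replicate values of the members and of the regions between the ends did not overlap in this width class. These values are medians, so their spread over replicates does not measure the spread among regions. A mean fold of at least 5 was found in 46 of the 85 members (54.1%) and in 53 of the 170 regions between the ends (31.2%). This share was not counted at the short-arm ends, where the median fold at this width was above that of the members in each replicate. In each narrower class the ranges over the replicates overlapped. Members of 10 to 20 kb had 2.87, 2.66 and 2.95 against 2.71, 2.57 and 2.84 between the ends, higher within each replicate. Members under 10 kb were also higher within each replicate, by less, at 2.24 ± 0.10 against 2.21 ± 0.11 (SD, n = 3 each). Members of 20 to 40 kb had 3.54 ± 0.19 against 3.68 ± 0.12 (SD, n = 3 each), higher in replicate 1 but lower in replicates 2 and 3. Members were also wider as a set, with 15.9% at 40 to 80 kb against 10.0% between the ends. Wide regions of the long-arm ends had a median fold of 11.7 ± 0.27 (SD, n = 3), far above the members.

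**Figure D4:**
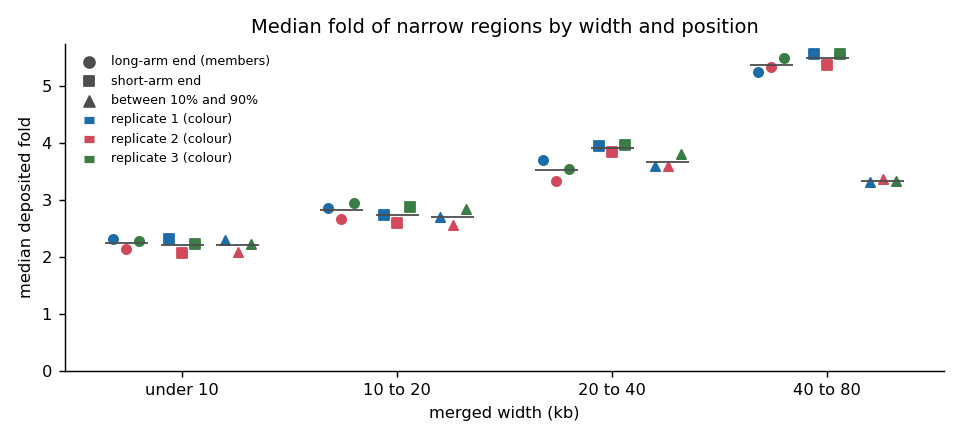
Median deposited fold of narrow regions in 4 classes of merged width, for the long-arm ends (circles), the short-arm ends (squares) and the sequence between 10% and 90% of the length (triangles). Each colour is 1 of 3 replicates and each short line their mean; at 40 to 80 kb the regions between the ends sit near 3.3 and both ends between 5.26 and 5.57.

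The replicates ranked the members alike. Spearman's rho of fold across members was 0.787 between replicates 1 and 2. It was 0.832 between 1 and 3 and 0.835 between 2 and 3, given without a p since members are not replicates. Of the 54 members with the highest fold in a replicate, 39 were shared by all 3 replicates. At the weak end only 15 of the 54 lowest were shared. Folds there lay close together, so small differences set the ranks. In replicate 1 they ran from 1.39 to 2.30 up to the 25th percentile, and from 6.01 to 26.7 above the 90th. Within a member, the highest of the 3 folds was a median of 1.23 times the lowest, and it exceeded 1.5 times in 40 members.

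The extent of a member also differed between replicates. The shared core, meaning the bases covered by all 3 lists, was a median of 76.0% of the merged width. It rose with width, from 62.5% in members under 10 kb to 91.1% in those of 40 to 80 kb. A shift of an edge takes a larger share of a narrow member, and its part in this rise was not tested. In 215 members the core was over 80% of the width, in 30 it was under 25%, and in none was it 0. The left edge differed between replicates by a median of 1.44 kb and the right edge by 1.62 kb. Both edges lay within 1 kb in 65 members and within 5 kb in 433. Replicate 3 covered the most bases in 248 members, replicate 2 in 167 and replicate 1 in 121.

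The strongest members are given next, as the 3 of highest mean percentile rank of fold on each chromosome. Positions are 1-based, and follow the peak lists; their genome build is not given in the sources used here. These 21 regions had mean folds from 6.90 to 23.8 and were wide for members, with a median of 66.5 kb and 19 of 21 at 50 kb or more. Their shared core was at least 86.5% of the width. Of the 21, 15 lay in the last 5% of the chromosome, a part that held 62.9% of all members.

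The strongest member of all lay on 6H from 522498507 to 522572175, 39.0 Mb from the end. Its folds were 26.7, 23.9 and 20.8, in the order of replicates 1 to 3 used throughout, or 23.8 ± 2.9 (SD, n = 3), and it ranked first in every replicate. All 3 values exceeded the highest fold of any other member, 18.8. The next wide region was 5.61 Mb away. The other 2 named members of 6H were much weaker, at 9.52 ± 1.5 and 6.90 ± 0.10 (SD, n = 3 each).

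On 3H the strongest member, from 605506185 to 605585376, had folds of 16.6, 13.0 and 18.8. At 79.2 kb it was also the widest member, just inside the limit, and 98.6% of it was shared by the 3 lists. The second of 3H, from 615490882 to 615516604, had folds of 10.2, 9.69 and 9.65 within only 25.7 kb. It was the narrowest of the 21, and its replicates differed little.

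On 5H the member from 586827174 to 586889302, 1.33 Mb from the end, had folds of 16.6, 13.2 and 15.3. It lay 102 kb from a wide region. The second of 5H, from 566680779 to 566747241, had folds of 13.4, 11.1 and 12.4, and the nearest wide region was 8.45 Mb away. The first and second members of 5H thus stood in different surroundings.

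On 7H the member from 606552690 to 606614643 had folds of 14.6, 11.6 and 14.2, with a wide region 47.4 kb away. The other 2 named members of 7H reached 11.9 ± 1.8 and 11.4 ± 1.5 (SD, n = 3 each). On 2H the member from 658207025 to 658271206 had folds of 11.7, 11.8 and 11.9. It had the smallest spread between replicates of all members on the log scale, a range of 0.03 in log2 fold. The second of 2H, from 629267865 to 629339278, had 10.9, 9.50 and 12.6.

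On 1H the member from 510113423 to 510176686 had folds of 12.7, 11.1 and 11.2. A second one further on, from 510545039 to 510620444, had 9.03, 10.4 and 12.2. Their replicate values overlapped, so their order is not fixed by these data. On 4H the member from 607425375 to 607477569 had folds of 7.69, 8.19 and 10.7. Chromosome 4H had the weakest leading member of the 7, and its other 2 reached 8.02 ± 1.34 and 7.77 ± 1.14 (SD, n = 3 each).

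**Figure D5:**
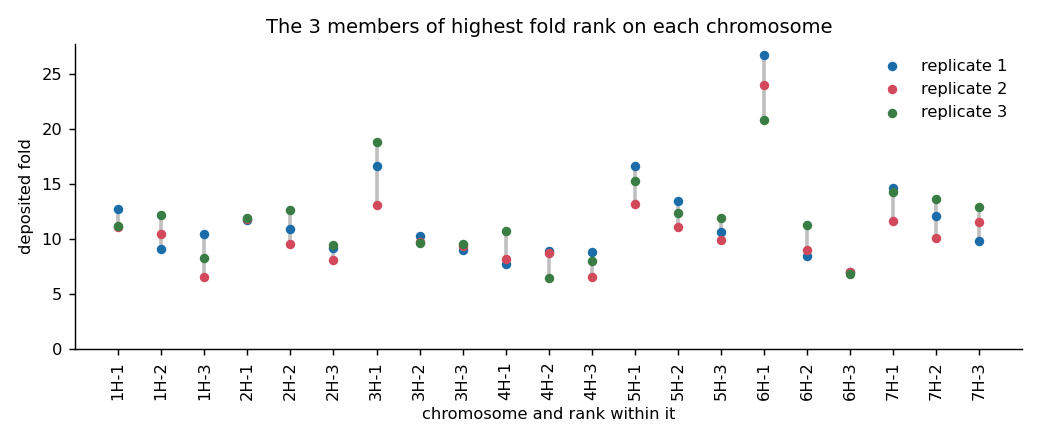
Deposited fold in each of 3 replicates (points) and their range (grey bars) for the 3 members of highest fold rank on each chromosome, numbered by rank. The 6H leader lies between 20.8 and 26.7, above all others, and the ranges of many of the others overlap.

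Median fold by chromosome varied little beside these leaders. It was highest on 2H, at 2.97 ± 0.09, and on 7H, at 2.94 ± 0.07, and lowest on 4H, at 2.49 ± 0.05, and on 6H, at 2.59 ± 0.19 (SD, n = 3 each). Chromosome 4H was the lowest in replicates 1 and 3, and 6H in replicate 2. Members on 4H were also the shortest, with a median width of 11.4 kb, and those on 3H the widest, with 18.8 kb. 6H thus held the strongest member while its median fold was low, within a range of only 2.49 to 2.97 over all chromosomes.

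Members closest to the tips ranged in mean fold from 2.03 to 8.89. On each chromosome the outermost member had its midpoint within 0.109 Mb of the last peak end, and on 6 of 7 its distance was under 0.1 Mb. The last peak end served as the chromosome end. On 1H, 2H, 4H, 5H and 7H the outermost member itself held that end. There its own width fixed the distance, so nothing is read from the closeness. The last member of 2H, from 665471114 to 665540395, had folds of 9.16, 8.08 and 9.42. The last of 4H, from 610275638 to 610331463, had 6.48, 4.16 and 6.44. The last of 5H, from 588175290 to 588190372, had 5.11, 4.01 and 4.48. The outermost members of 1H, 3H, 6H and 7H had mean folds of 2.63, 2.03, 3.10 and 3.42. Replicate 2 gave the lowest value in all 7 outermost members.

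Neighbouring members were usually far apart. The median gap was 483 kb, 137 of 529 gaps exceeded 1 Mb, and the longest stretch without a member spanned 7.62 Mb on 3H from 566140376 to 573758171. Gaps of at most 100 kb joined 164 members into 72 runs, of which 57 were pairs. The longest 2 runs held 5 members each. One ended at the last peak end of 7H, which served as the chromosome end, from 632327441 to 632539037, with mean folds of 2.03 to 4.99. The other lay on 6H from 535281205 to 535489030, with mean folds of 2.06 to 5.68. A run of 4 lay on 2H from 664718396 to 664864637, with mean folds of 2.86 to 4.24.

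Members beside wide regions were somewhat stronger. A wide region lay within 100 kb of 49 members and over 1 Mb from 314. The median fold of the former was 3.05, 2.77 and 2.94 in the 3 replicates, and that of the latter 2.72, 2.57 and 2.80. The 49 members were also wider, with a median of 22.1 kb against 12.8 kb, and the part of width in this difference was not tested.

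The weakest member lay on 4H from 604599730 to 604610900, with folds of 1.39, 1.41 and 1.44. The next weakest, also on 4H, from 607980734 to 607983168, had 1.97, 1.75 and 1.69. The values of the first were nearly equal in the replicates and below those of every other member. Its −log10 q values were 4.56, 9.01 and 9.63, higher than the member medians in each replicate despite the low fold. The 3 lists shared 28.9% of its width, and a wide region lay 21.7 kb away. The narrowest member, 2.04 kb on 7H from 586038963 to 586041004, had folds of 2.34, 1.88 and 2.00.

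The replicates differed most in the following members. The member on 6H from 554632452 to 554644260 had folds of 3.91, 2.13 and 3.21, the widest ratio of all members at 1.84. On 7H, from 577103668 to 577139537, replicate 2 was high, with 2.25, 3.37 and 1.86. On 5H, from 581585588 to 581630953, replicate 3 was high, with 2.19, 2.56 and 3.95. On 3H, from 598094765 to 598105736, replicate 2 was low, with 3.06, 1.97 and 3.50. On 4H, from 568287946 to 568333877, the folds were spread evenly, at 7.17, 5.35 and 9.49. Replicate 2 gave the lowest value in 3 of these 5 members and the highest in 1.

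The limits of the rule cut through regions of mixed strength. Inside the width limit, members of 79.2, 79.1 and 78.8 kb had mean folds of 16.2, 7.77 and 6.90. Outside it, regions of 80.3, 81.5 and 81.6 kb had 2.18, 2.58 and 4.92. Just inside the position limit, 3 members at 90.01%, 90.03% and 90.04% of the length had mean folds of 2.13, 2.98 and 2.04. Just outside it, 3 narrow regions at 89.98%, 89.83% and 89.79% had 7.56, 4.07 and 2.01. The 3 members at the width limit were stronger than the 3 wider regions next to them, whereas at the position limit the values of both sides overlapped.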

How the data were processed

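Per the labels, chromatin of 16-day endosperm was cross-linked with formaldehyde, sonicated, precipitated with an antibody against H3K27me3 and sequenced in read pairs. The submitters' processing notes name bcl2fastq, HISAT2 2.1.0, GATK, MACS2 and deepTools without roles, order or settings. The genome build and the use of the input libraries in peak calling are not given in the sources used here. The authors deposited 1 peak list per ChIP library in broadPeak layout, so each replicate has its own calls. The column meanings were read from that layout with MACS2 as the caller. The deposited ratio of column 7 is the fold of the ChIP signal over the background within the peak. Column 8 holds the deposited −log10 p-value, and column 9 the deposited −log10 q-value. The deposited score of column 5 was not used; in 99.9% of peaks it was 10 times column 9 with the decimals dropped. The lowest −log10 q was 1.03 ± 0.014 (SD, n = 3), so weak peaks are in the lists. In the third list the names of the peaks bear a library number other than the label's, and the label was followed.

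Peaks were merged across lists, and chromosome length was the largest peak end on it. Starts were read as 0-based. Members, lists and alternatives were chosen with earlier results of these data known. Named regions followed 1 rule: the 3 of highest fold rank per chromosome, the widest, narrowest, weakest and outermost ones, those at the limits, the longest runs, and those with the largest range between replicates. Depth is unknown, so no counting interval was computed, and only the spread over 3 replicates gives precision. Selection and values were tested on simulated lists. The tools were pandas 2.3.3 and numpy 2.4.6 under Python 3.11.15, with scipy 1.17.1. Alternatives were other peak thresholds, list lengths, merging, overlap, width and position limits, and leaving out each replicate.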

Additional observations from a re-analysis of the deposited data

How the results depend on the processing

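The thresholds on peaks moved the members most, since both remove weak peaks by construction. With a −log10 q of at least 5 there were 200 members, 0.477 per Mb, with a median fold of 4.34, a median width of 29.5 kb, a median −log10 q of 19.7 and a median shared core of 87.4%. A minimum fold of 3 left 156 members, 0.372 per Mb, with 5.00, 32.2 kb, 25.4 and 89.1% in the same order. An equal number of peaks per replicate gave a median fold of 2.88 and a width of 15.2 kb. Requiring each pair of lists to share at least 50% of a region gave a fold of 2.95, a width of 15.9 kb and a core of 79.6%. A width limit of 40 kb gave 2.65 and 12.3 kb, and no width limit gave 2.97 and 19.0 kb. Taking the last 5% of the length left 337 members with a median width of 15.2 kb. Leaving out 1 replicate and keeping regions of both others gave 562 to 659 members, a median fold of 2.53 to 2.76, a width of 12.3 to 13.5 kb and a core of 82.0% to 84.3%. The highest number and the lowest fold came without replicate 1. The mean folds of the 57 named members moved by less than their SD with a length-weighted mean fold; without any single replicate they also did, as a mean of 3 values always does. No paired analysis was possible because no test was made between the ChIP and the input libraries, which gave no values here; sets of regions were set side by side within each replicate.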

Other observations

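Genes could be set beside the members only by reading the positions on the MorexV3 assembly of the RefSeq gene table, which the sources used here do not name as the build of the lists. The last gene of that table lay within 0.411 Mb of the last peak end on each of the 7 chromosomes. Read this way, 74 of the 536 members (13.8%) overlapped at least 1 of its 30627 protein-coding genes, and they held 159 genes in all. The share was 10.3% of the narrow regions at the short-arm ends, 4.66% of those between the ends and 55.1% of the wide regions at the long-arm ends. Windows of the same width beside each member overlapped a gene more often. The share was 31.3% and 33.9% at 50 kb to the left and right, and 34.5% on both sides at 100 kb. The members thus sat on less gene sequence than their own surroundings, a comparison that used no random positions and was not tested.

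By length, genes made up 3.69% of the members' sequence. In the 5 kb beyond either edge the share was 4.28% and 4.35%, and at 10 to 20 kb it was 8.37% and 8.57%. The value inside was alike in the peaks of the 3 replicates, at 3.91%, 3.46% and 3.73%. Narrow regions at the short-arm ends had 4.05% inside, 3.72% and 3.68% in the 5 kb beyond the edges, and 6.82% and 6.29% at 10 to 20 kb. Those between the ends had 1.80% inside, 1.72% and 2.07% within 5 kb, and 3.39% and 4.46% at 10 to 20 kb. In all 3 sets the share inside was thus below that at 10 to 20 kb. Against the 5 kb beyond the edges, only the members among these 3 sets were lower inside on both sides. The wide regions of the long-arm ends were lower inside as well, with 4.81% against 5.07% and 7.01%. A wider interval meets a gene more easily, so members were also set beside windows of their own width, 50 kb to the left and right. Under 10 kb, 4.52% of the members overlapped a gene, against 12.9% and 24.5% of the windows. At 10 to 20 kb the shares were 5.26% against 27.5% and 26.5%, at 20 to 40 kb 24.8% against 40.8% and 41.5%, and at 40 to 80 kb 31.8% against 58.8% and 56.3%. The members had the lower share in each width class on both sides.

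The strongest member, on 6H, overlapped 5 protein-coding genes, LOC123403475, LOC123403507, LOC123403504, LOC123403496 and LOC123403493. Those leading on 3H, 4H, 5H and 7H overlapped none, and those on 1H and 2H overlapped LOC123402849 and LOC123428944. The table gives no product for these genes, so no role is stated. One member, on 4H from 573669753 to 573713928, overlapped 43 of the table's ribosomal RNA genes, while no other member overlapped any; its folds were 2.95, 2.47 and 2.69. Requiring the lowest coordinate of a gene inside the region, with strand not considered, lowered the share of members with a gene from 13.8% to 11.8%.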
